A study of Mus musculus with 8 samples.

Results

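The genes described here build, organise and remodel the extracellular matrix of the heart. They are collagens, basement membrane proteins, fibronectin and elastic fibre proteins, matricellular proteins, small leucine-rich proteoglycans, cross-linking enzymes, matrix proteases with their inhibitors, TGF-beta ligands, and a few receptors and a transcription factor of fibroblasts. The 49 genes were listed by name, and no threshold on their values chose them. The list was drawn up with earlier results of these data known, so its counts beside those of all genes are descriptive. A gene was measured if the array held a probe set with its symbol and no other, and 46 of the 49 met this rule, out of 19933 genes measured in all. Fbn1, Spp1 and Loxl2 had no such probe set among those used, and Ctgf was read through its current symbol Ccn2. Each of the 46 genes rests on 1 probe set.

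Total RNA from the left ventricle of 8 mice of the C57/Bl6 strain was hybridised to Affymetrix mouse gene arrays, 1 array for each of 3 control, 2 PlGF and 3 PlGF/RGS4 animals. Placental growth factor (PlGF) is a ligand of the VEGF family that drives vessel growth, and RGS4 is a regulator that shortens G protein signalling. In both transgenic lines the transgenes were under the tetracycline transactivator, itself driven by the αMHC promoter, which restricts expression to cardiomyocytes. Doxycycline in the diet was used to repress the transgenes until 5 weeks of age, normal chow was then given for 6 weeks to induce them, and the mice were 11 weeks old. The controls were littermates that carried a single transgene of the pair. All values are intensities, in arbitrary linear units already scaled to 1 level by the authors. A log2 difference is taken on log2 of the intensity plus 1, which understates the change of dim genes.

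Most of the cardiac interstitial matrix is made by fibroblasts. Fibrillar collagens give tensile strength and are cross-linked by lysyl oxidases, while type IV collagen, laminins and nidogen form the sheet on which myocytes and capillaries sit. Matricellular proteins bind cells and growth factors without bearing load, and many are low in the adult heart and induced by injury or pressure. TGF-beta is the best known inducer of this program, and the balance of metalloproteinases and TIMPs sets how fast the matrix turns over.

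RefSeq promoter sequences were at hand for 32 of the 46 measured genes (mouse assembly GRCm38.p6), and the 250 bases before each start were searched on both strands for 4 motifs. The TATATAA letters of a TATA box lay in the windows of 4 of these genes, Postn, Tnc, Cilp and Ddr2, and in 3.04% of all 32851 windows. TGANTCA, the letters bound by AP-1, lay in those of Col6a1 and Mmp3 and in 6.75% of all windows. GGAATG, the letters bound by TEAD factors, lay in those of 6 genes, among them Timp1 and Col3a1, and in 12.6% of all windows. CAGAC, a short SMAD-binding element, lay in those of 19 genes and in 42.2% of all windows. None of these letter strings overlaps another in the stretches printed next. The 60 bases immediately before the start are shown for 5 genes that the results describe. Sparc is the gene that passed the test, and Postn, Tnc, Cilp and Timp1 are among those with the widest gap between the PlGF hearts. Capitals mark the TATATAA letters, or in Sparc the CAGAC element read on the opposite strand, and the stretch of Timp1 held none of the 4 motifs. Of the 2 windows of Tnc and of Postn, the one with the TATATAA letters is shown.
Sparc, chr11:55420081-55420140, minus strand: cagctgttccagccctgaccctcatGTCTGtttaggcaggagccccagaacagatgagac
Postn, chr3:54361047-54361106, plus strand: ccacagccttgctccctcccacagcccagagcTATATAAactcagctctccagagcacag
Tnc, chr4:64046937-64046996, minus strand: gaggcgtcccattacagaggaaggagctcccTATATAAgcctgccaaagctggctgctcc
Cilp, chr9:65265120-65265179, plus strand: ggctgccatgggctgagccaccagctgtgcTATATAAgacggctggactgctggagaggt
Timp1, chrX:20870106-20870165, plus strand: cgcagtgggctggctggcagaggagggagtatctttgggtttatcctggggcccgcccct
A match of letters is a description and not a binding site.

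The first comparison asked which matrix genes differed after 6 weeks of PlGF expression. Sparc, which encodes a collagen-binding matricellular glycoprotein, was higher in PlGF and was the only matrix gene called. By limma with Benjamini-Hochberg adjustment over all genes, 1 of 46 was higher at an adjusted p under 0.05. That is near the 1.79% of all genes, and 0 of the 46 were lower, against 0.748%. These shares are also the background for the counts called in PlGF against control in each group below. The call of Sparc was lost in several alternative settings, among them array weights and log2 of the intensity plus 16. It was also lost when any single array other than PlGF replicate 2 was left out. An unadjusted p under 0.05 was found for 16 of the 46 above control and 1 below, against 10.9% and 11.7% of all genes. Both PlGF hearts lay above all 3 controls for 21 of the 46 and below all 3 for 2, against 14.3% and 19.5% of all genes. The median log2 difference from control was 0.40 over the matrix genes and −0.03 over all genes. RNA of a whole ventricle was measured, so more cells of a type and more RNA per cell cannot be told apart.

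The 2 PlGF hearts were far apart. In PlGF replicate 1, 25 of the 46 genes were at least 1.5-fold above the control mean, against 7.04% of all genes, with a median log2 difference of 0.66. In PlGF replicate 2, 2 of the 46 were, Tnc and Timp1, against 1.88% of all genes, with a median of 0.06. With PlGF replicate 1 as the lone PlGF heart, whose spread is then taken from the other groups, 27 of the 46 passed as higher and 2 as lower, against 14.1% and 15.6% of all genes. With PlGF replicate 2 as the lone PlGF heart 0 of the 46 passed, against 1.48% and 0.356% of all genes called higher and lower. An unadjusted p under 0.05 was found there for Sparc and Tgfb1 above control and Ctgf below, against 6.95% and 7.16% of all genes. The mean correlation with arrays of the other groups was 0.974 for PlGF replicate 1 and from 0.991 to 0.993 for the other 7 arrays.

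**Figure D1:**
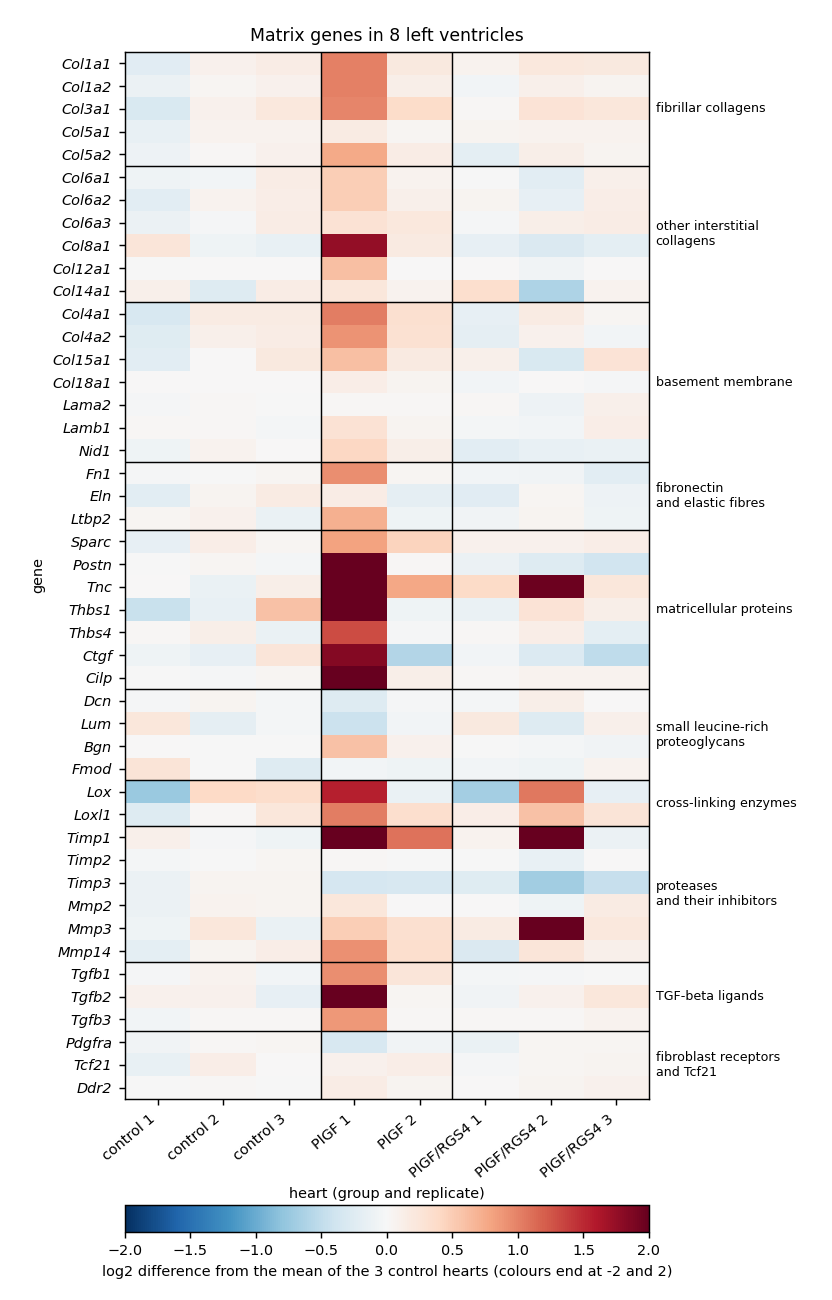
Each cell is the log2 difference of a gene (rows, in groups by role) in a heart (columns) from the mean of the 3 control hearts, red for higher and blue for lower, with colours ending at −2 and 2. The column of PlGF replicate 1 is red through most groups, PlGF replicate 2 is pale except for a few genes, and of the 3 hearts labelled PlGF/RGS4 only replicate 2 has the darkest red (Tnc, Timp1 and Mmp3).

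Several readouts moved with these differences. Pgf, the transgene itself, read 4136 in PlGF replicate 1 and 917 in replicate 2, against 211, 349 and 387 in control hearts. It read 300.0, 229 and 211 in the 3 PlGF/RGS4-labelled arrays. Rgs4 read 209.5, 277 and 282 in control hearts, 235 in PlGF replicate 1 and 195 in replicate 2, and 234, 187 and 229 in the PlGF/RGS4-labelled arrays, where its log2 fold change was −0.23 ± 0.14 (SE) (limma adjusted p = 0.995). Pgf was therefore not above control despite the PlGF/RGS4 label, and Rgs4 was not above control there either. Whether the probe sets detect the transgenes of that line was not tested. Every value of that group is one of arrays so labelled. The summed intensity of 11 macrophage markers was 16872 and 9456 in PlGF replicates 1 and 2. It was from 6290 to 6612 in the controls and from 5477 to 7053 in the PlGF/RGS4-labelled arrays. Of the 11, 1 was called in PlGF, and at an unadjusted p under 0.05 stood 8 above control and 1 below. The 1 below was Cd163 (−0.46 ± 0.10 (SE), limma adjusted p = 0.0626), and Mrc1 was nearly level (0.13 ± 0.14 (SE)). All 7 T and NK cell markers were called higher in PlGF, with sums of 4754 and 1957. The sums were 492 to 506 in the controls and 484 to 505 in the PlGF/RGS4-labelled arrays. The 7 include Ptprc, a gene of leukocytes in general, which read 1051 and 505.5 in PlGF replicates 1 and 2. The 9 cardiomyocyte markers, which define the labelled tissue, were bright in every array. They summed to 106436 in PlGF replicate 1 and to between 124390 and 126820 in the other 7. In PlGF 0 of the 9 were called, and 3 were lower and 0 higher at an unadjusted p under 0.05. These 3 were Ryr2 (−0.73 ± 0.21 (SE)), Atp2a2 (−0.25 ± 0.10 (SE)) and Pln (−0.27 ± 0.11 (SE)). The change was smallest for Actc1 (−0.003 ± 0.04 (SE)), so the lower sum was not shared evenly by the 9. The 7 endothelium markers summed to 15603 and 14686 in PlGF replicates 1 and 2. They summed to 12488 to 13058 in the controls and 12255 to 12955 in the PlGF/RGS4-labelled arrays. In PlGF 1 of the 7 was called (Cdh5, the VE-cadherin of endothelial junctions, 0.30 ± 0.05 (SE), limma adjusted p = 0.0374). By log2 fold change 5 of the 7 were above control and 2 below, Pecam1 (−0.03 ± 0.07 (SE)) and Tek (−0.02 ± 0.11 (SE)). The 7 pericyte and smooth muscle markers summed to 22238 and 17817 in PlGF replicates 1 and 2. The controls summed to 17799 to 18655, so replicate 2 was within their range, and the PlGF/RGS4-labelled arrays to 16231 to 16781. Des, which cardiomyocytes express too, was the largest part of every sum, so the sums do not read pericytes and smooth muscle alone. Des by itself read 11268 in PlGF replicate 1 and 9047 in replicate 2, against 8845, 8824 and 8845 in the controls. In PlGF 1 of the 7 was called (Pdgfrb, the PDGF receptor of pericytes, 0.39 ± 0.07 (SE), limma adjusted p = 0.0459). By log2 fold change 5 of the 7 were above control and 2 below, Myh11 (−0.16 ± 0.14 (SE)) and Acta2 (−0.31 ± 0.32 (SE)). The 9 fibroblast markers, which include Pdgfra, Tcf21 and Ddr2 of the matrix list and the matrix genes Dpt and Lamc3, summed to 6874 in PlGF replicate 1, 8001 in replicate 2 and 7720 to 8658 in the controls, and 0 of the 9 were called (1 lower and 0 higher at an unadjusted p under 0.05). No marker of these lists was at 0. Over all genes 1.79% were called higher and 0.748% lower in PlGF, and 10.9% and 11.7% had an unadjusted p under 0.05. Xist, which is expressed from an inactive X chromosome, read under 51 in control 2, PlGF 1 and PlGF/RGS4 2 and at least 2580.8 in the other 5, and the labels give no sex. The part of these readouts in the matrix differences was not tested.

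Fibrillar collagens, the load-bearing fibres of scar and interstitium, had 0 of 5 genes called. At an unadjusted p under 0.05 stood 4 of the 5, all higher, against 10.9% of all genes. Col1a1, a chain of type I collagen, read 381, 473 and 495 in the controls, 899 in PlGF replicate 1 and 509 in replicate 2, and 469.5, 518 and 514 in the PlGF/RGS4-labelled arrays. The log2 fold change of Col1a1 in PlGF was 0.60 ± 0.22 (SE) (limma adjusted p = 0.173). Both PlGF hearts were above every control, but PlGF replicate 2 was close to the highest control and lay within the range of the PlGF/RGS4-labelled arrays. Col1a2, the partner chain, read 389, 434 and 446 in the controls, 848 in PlGF replicate 1 and 459.7 in replicate 2, with 407, 454 and 437 in the PlGF/RGS4-labelled arrays. Col3a1, which makes the thinner type III fibres, read 262, 344 and 372 in the controls, 638 in PlGF replicate 1 and 414 in replicate 2, and 327, 389.9 and 377 in the PlGF/RGS4-labelled arrays. Col1a2 was higher by 0.56 ± 0.22 (SE) (limma adjusted p = 0.19) and Col3a1 by 0.67 ± 0.21 (SE) (limma adjusted p = 0.122). For Col3a1 both PlGF hearts were above every other array, which was not so for Col1a1. The minor chains Col5a2 and Col5a1, which start fibril assembly, had log2 fold changes of 0.45 ± 0.17 (SE) and 0.10 ± 0.08 (SE).

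Among the other interstitial collagens 0 of 6 were called and 2 were higher at an unadjusted p under 0.05, against 10.9% of all genes. Col8a1, a short-chain collagen of vessel walls and remodelling tissue, read 604, 479.7 and 458 in the controls, 1727 in PlGF replicate 1 and 578 in replicate 2, with 456, 419 and 446 in the PlGF/RGS4-labelled arrays. PlGF replicate 1 stood alone and PlGF replicate 2 lay inside the control range, and the log2 fold change was 0.97 ± 0.39 (SE) (limma adjusted p = 0.199). Type VI collagen forms beaded filaments around cells. Its chains Col6a1, Col6a2 and Col6a3 had log2 fold changes of 0.28 ± 0.14 (SE), 0.29 ± 0.15 (SE) and 0.25 ± 0.09 (SE) (limma adjusted p = 0.296, 0.29 and 0.157). Col6a1 read 443, 453 and 519 in the controls, 662 in PlGF replicate 1 and 492 in replicate 2, and 468, 408 and 506 in the PlGF/RGS4-labelled arrays, so that PlGF replicate 2 overlapped the controls. Col12a1 and Col14a1, which decorate the surface of fibrils, had log2 fold changes of 0.31 ± 0.15 (SE) and 0.15 ± 0.26 (SE). Col14a1 was lowest in PlGF/RGS4 replicate 2, at 201, against 333, 259 and 342 in the controls.

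Of 7 basement membrane genes 0 were called, and 3 were higher at an unadjusted p under 0.05, against 10.9% of all genes. For 5 of the 7 both PlGF hearts were above every control, against 14.3% of all genes. Col4a1 and Col4a2 encode the 2 chains of the main type IV collagen network and are neighbours in the genome. Col4a1 read 418, 584 and 584 in the controls, 1066 in PlGF replicate 1 and 651 in replicate 2, and 464, 584 and 537 in the PlGF/RGS4-labelled arrays. Col4a2 read 458, 578 and 596 in the controls, 1008 in PlGF replicate 1 and 665 in replicate 2, and 479, 572 and 519 in the PlGF/RGS4-labelled arrays. In both genes the PlGF hearts were above all 6 others, with log2 fold changes of 0.67 ± 0.23 (SE) and 0.60 ± 0.19 (SE) (limma adjusted p = 0.15 and 0.125). Nid1, the nidogen that links laminin to type IV collagen, read 1617, 1809 and 1724 in the controls, 2287 in PlGF replicate 1 and 1867 in replicate 2, and 1478, 1555 and 1564 in the PlGF/RGS4-labelled arrays. Its PlGF hearts were above every control and its 3 PlGF/RGS4-labelled arrays were below every control, with log2 fold changes of 0.27 ± 0.09 (SE) in PlGF and −0.16 ± 0.08 (SE) in the PlGF/RGS4-labelled arrays (limma adjusted p = 0.149 and 0.995). Lama2, the laminin chain of muscle, read 1452, 1486 and 1468 in the controls, 1500.2 in PlGF replicate 1 and 1486 in replicate 2, and 1486, 1363 and 1579 in the PlGF/RGS4-labelled arrays, a log2 fold change of 0.02 ± 0.07 (SE) in PlGF (limma adjusted p = 0.858). It was −0.028 once each array is centred on its median, so no direction is given for Lama2. The proteoglycan-like collagens Col15a1 and Col18a1 and the laminin chain Lamb1 had log2 fold changes of 0.39 ± 0.20 (SE), 0.10 ± 0.05 (SE) and 0.17 ± 0.09 (SE).

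Fn1, which encodes fibronectin, the provisional scaffold of wounds, read 736, 741 and 768 in the controls, 1428 in PlGF replicate 1 and 769 in replicate 2, and 722, 709 and 649 in the PlGF/RGS4-labelled arrays. PlGF replicate 2 was above the highest control by under 2 units, the 3 PlGF/RGS4-labelled arrays were below every control, and the log2 fold change in PlGF was 0.49 ± 0.22 (SE) (limma adjusted p = 0.242). Eln, which encodes elastin, read 219, 262 and 285 in the controls, 282 in PlGF replicate 1 and 223 in replicate 2, and 218, 259.8 and 236 in the PlGF/RGS4-labelled arrays. The groups overlapped, and the log2 fold change of −0.02 ± 0.14 (SE) (limma adjusted p = 0.963) turned positive without control 2, control 3 or PlGF replicate 2, so no direction is given. Ltbp2, a microfibril protein related to the binders of latent TGF-beta, had a log2 fold change of 0.32 ± 0.21 (SE). Of the 3 measured genes of this group 0 were called. At an unadjusted p under 0.05 stood 0 of the 3, against 10.9% of all genes higher and 11.7% lower.

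Of the matricellular proteins 1 of 7 was called, against 1.79% of all genes called higher. All 7 were at least 1.5-fold above the control mean in PlGF replicate 1, against 7.04% of all genes. Their median log2 difference was 2.29 in that heart and 0.029 in PlGF replicate 2. Sparc read 3802, 4667 and 4374 in the controls, 7447 in PlGF replicate 1 and 5796 in replicate 2, and 4536, 4551 and 4667 in the PlGF/RGS4-labelled arrays. Both PlGF hearts were above the other 6, and the log2 fold change was 0.62 ± 0.12 (SE) (limma adjusted p = 0.0459). An exact two-sided permutation test over the arrays gave p = 0.1, the smallest that 2 against 3 allow. The adjusted p of Sparc was 0.137 without PlGF replicate 1 and from 0.0924 to 0.147 without any single one of the controls or of the PlGF/RGS4-labelled arrays, and 0.00303 without PlGF replicate 2, with log2 fold changes from 0.44 to 0.80.

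Tnc, which encodes the de-adhesive glycoprotein tenascin-C of healing myocardium, read 43.2, 39.2 and 46.6 in the controls, 767 in PlGF replicate 1 and 74.2 in replicate 2, and 56.2, 169 and 50.2 in the PlGF/RGS4-labelled arrays. Every transgenic array was above every control, by a log2 fold change of 2.45 ± 0.92 (SE) in PlGF (limma adjusted p = 0.173) and 0.85 ± 0.82 (SE) in the PlGF/RGS4-labelled arrays (limma adjusted p = 0.998). Leaving out PlGF replicate 2 gave 4.13 in PlGF, and leaving out PlGF replicate 1 gave 0.78. Cilp, a cartilage intermediate layer protein that fibroblasts secrete, read 112, 111 and 117 in the controls, 684 in PlGF replicate 1 and 123.4 in replicate 2, and 115, 118 and 118 in the PlGF/RGS4-labelled arrays, a log2 fold change of 1.35 ± 0.59 (SE) in PlGF (limma adjusted p = 0.226). Ctgf, which encodes connective tissue growth factor, read 1442, 1370.1 and 1823 in the controls, 5484 in PlGF replicate 1 and 1024 in replicate 2, and 1476, 1266 and 1073 in the PlGF/RGS4-labelled arrays. For Ctgf the PlGF hearts lay on opposite sides of the controls, and the log2 fold change of 0.63 ± 0.59 (SE) (limma adjusted p = 0.557) was −0.58 without PlGF replicate 1.

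The 3 remaining matricellular genes are named after their values were seen. Postn, which encodes periostin of activated fibroblasts, read 751, 774 and 732 in the controls, 4050.1 in PlGF replicate 1 and 768 in replicate 2, and 690.0, 629.5 and 579 in the PlGF/RGS4-labelled arrays. Thbs1, an activator of latent TGF-beta, read 161, 199.5 and 332 in the controls, 1083 in PlGF replicate 1 and 206 in replicate 2, and 200.2, 268 and 239 in the PlGF/RGS4-labelled arrays. Thbs4, a thrombospondin of stressed muscle, read 101, 108 and 90.5 in the controls, 248 in PlGF replicate 1 and 98 in replicate 2, and 102, 109 and 87 in the PlGF/RGS4-labelled arrays. In each of the 3 genes PlGF replicate 1 was above every other array and PlGF replicate 2 was within the control range. Their log2 fold changes were 1.23 ± 0.57 (SE), 1.10 ± 0.63 (SE) and 0.64 ± 0.33 (SE) (limma adjusted p = 0.254, 0.335 and 0.296), and without PlGF replicate 1 they were 0.029, −0.092 and −0.024.

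**Figure D2:**
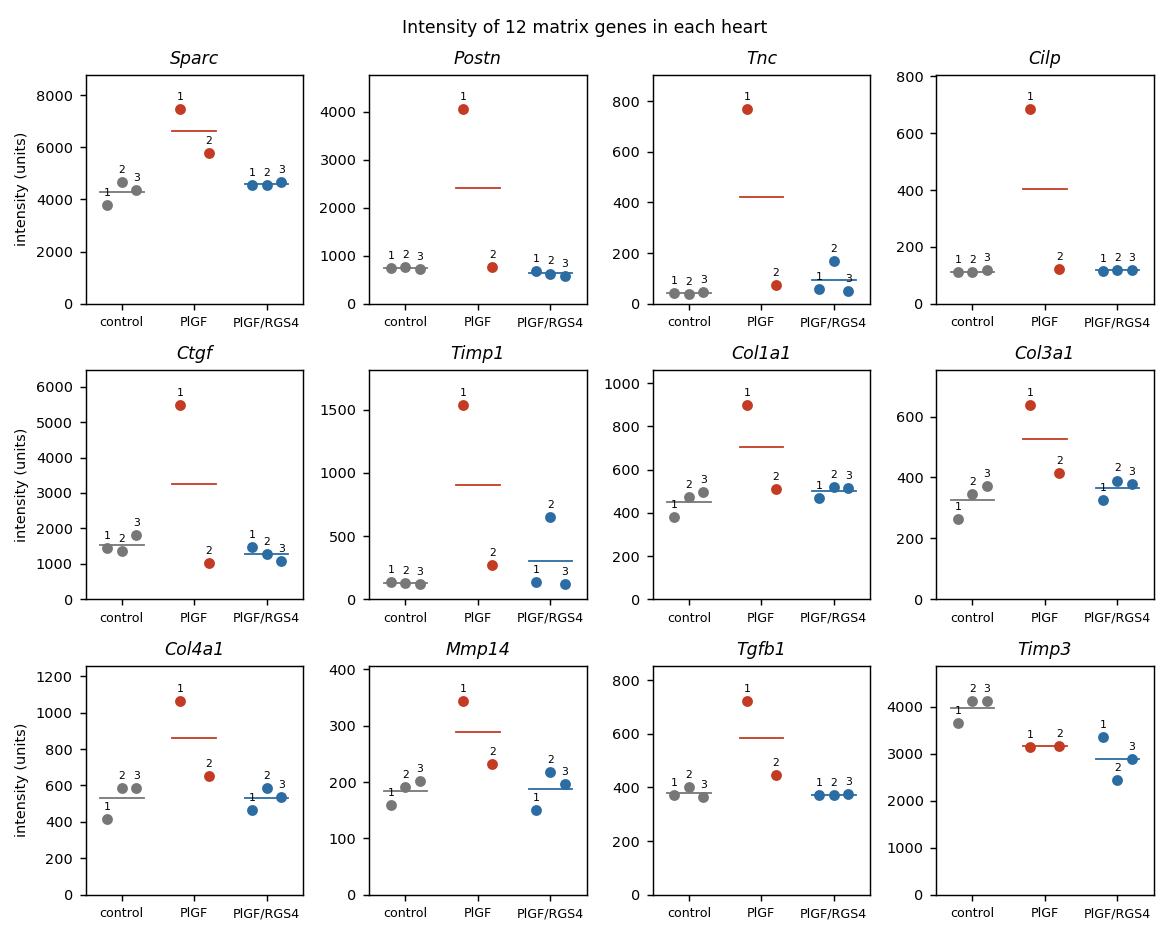
Intensity in arbitrary units (linear vertical axes from 0) of 12 matrix genes, with 1 point per heart, numbered by replicate, in the control (grey), PlGF (red) and PlGF/RGS4 (blue) groups as labelled, and a line at each group mean. PlGF replicate 1 is the highest heart for every gene but Timp3, where both PlGF hearts and all 3 hearts labelled PlGF/RGS4 sit below the 3 controls.

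The small leucine-rich proteoglycans, which bind collagen fibrils and set their width, were not higher as a group, with a median log2 fold change of −0.10. Of these 4 genes 0 were called and 1 was higher at an unadjusted p under 0.05, against 10.9% of all genes. Dcn, which encodes decorin, a constitutive product of cardiac fibroblasts, read 7755, 8149 and 7659 in the controls, 6594 in PlGF replicate 1 and 7711 in replicate 2, and 7669, 8484 and 7882 in the PlGF/RGS4-labelled arrays. Its log2 fold change in PlGF was −0.14 ± 0.08 (SE) (limma adjusted p = 0.34), and PlGF replicate 1 was its lowest array. Bgn, which encodes biglycan, read 3876, 3832 and 3832 in the controls, 5764 in PlGF replicate 1 and 4095 in replicate 2, and 3832, 3749 and 3646 in the PlGF/RGS4-labelled arrays, a log2 fold change of 0.34 ± 0.13 (SE) (limma adjusted p = 0.172), with both PlGF hearts above the other 6. Lum and Fmod, which encode lumican and fibromodulin, had log2 fold changes of −0.24 ± 0.18 (SE) and −0.07 ± 0.13 (SE).

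Of the fibroblast genes that are not matrix proteins 0 of 3 were called. At an unadjusted p under 0.05 stood 0 of these 3, against 10.9% of all genes higher and 11.7% lower. Pdgfra, the PDGF receptor that marks resident fibroblasts, read 629, 665 and 678 in the controls, 523 in PlGF replicate 1 and 623 in replicate 2, and 602, 675 and 676 in the PlGF/RGS4-labelled arrays. Its PlGF hearts were below every control, with a log2 fold change of −0.20 ± 0.09 (SE) (limma adjusted p = 0.236). Ddr2, a collagen receptor of fibroblasts, read 469.6, 480.3 and 469 in the controls, 523 in PlGF replicate 1 and 490.3 in replicate 2, and 476, 490.3 and 501 in the PlGF/RGS4-labelled arrays, a log2 fold change of 0.10 ± 0.05 (SE) (limma adjusted p = 0.298). Tcf21, a transcription factor of the fibroblast lineage, had a log2 fold change of 0.12 ± 0.08 (SE). Of 5 myofibroblast markers, 1 of which is Postn, 0 were called, against 1.79% of all genes higher and 0.748% lower. An unadjusted p under 0.05 was found for 0 of the 5, against 10.9% and 11.7%. With so few genes these counts are near the shares of all genes. Acta2, the contractile actin of myofibroblasts and smooth muscle, read 3578, 2749 and 4122 in the controls, 4070.5 in PlGF replicate 1 and 1895 in replicate 2, and 2248, 1574 and 1936 in the PlGF/RGS4-labelled arrays, so PlGF replicate 1 was within the control range and the other 4 transgenic hearts were below it. Tagln, Cnn1 and Fap had log2 fold changes of 0.08 ± 0.28 (SE), 0.02 ± 0.26 (SE) and −0.15 ± 0.23 (SE) in PlGF. Meox1, a transcription factor of activated fibroblasts that is named after its values were seen, read 117, 156 and 147 in the controls, 521 in PlGF replicate 1 and 134 in replicate 2, and 119, 126 and 144 in the PlGF/RGS4-labelled arrays, with PlGF replicate 1 alone above the rest.

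The lysyl oxidases cross-link collagen and elastin. Loxl1 read 385, 469 and 538 in the controls, 931 in PlGF replicate 1 and 584 in replicate 2, and 504, 691 and 551 in the PlGF/RGS4-labelled arrays, a log2 fold change of 0.68 ± 0.23 (SE) in PlGF (limma adjusted p = 0.142). Its PlGF hearts were above every control, though PlGF/RGS4 replicate 2 was above PlGF replicate 2. Lox, which encodes the main lysyl oxidase, read 46.8, 104 and 102 in the controls, 236 in PlGF replicate 1 and 72.4 in replicate 2, and 48.9, 165 and 70.8 in the PlGF/RGS4-labelled arrays. The controls themselves varied by over 2-fold, the groups overlapped, and the log2 fold change of 0.71 ± 0.66 (SE) (limma adjusted p = 0.547) was −0.13 without PlGF replicate 1.

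Of the proteases and inhibitors 0 of 6 were called. At an unadjusted p under 0.05 stood 3 of them, 2 above control and 1 below, against 10.9% and 11.7% of all genes. Timp1, an inhibitor of metalloproteinases that is induced in injured heart, read 138, 126 and 120.4 in the controls, 1538 in PlGF replicate 1 and 271 in replicate 2, and 134, 648 and 118 in the PlGF/RGS4-labelled arrays. Both PlGF hearts were above every control, PlGF/RGS4 replicate 2 lay between them, and the log2 fold change was 2.33 ± 0.88 (SE) in PlGF (limma adjusted p = 0.177). Timp3, the matrix-bound inhibitor, went the other way. It read 3656, 4121 and 4130.5 in the controls, 3153 in PlGF replicate 1 and 3159.9 in replicate 2, and 3359, 2440.1 and 2884 in the PlGF/RGS4-labelled arrays, so that all 5 transgenic hearts were below all 3 controls and the 2 PlGF hearts were nearly equal. The log2 fold change of Timp3 was −0.33 ± 0.13 (SE) in PlGF and −0.47 ± 0.11 (SE) in the PlGF/RGS4-labelled arrays (limma adjusted p = 0.184 and 0.808). Timp2 had a log2 fold change of 0.01 ± 0.06 (SE).

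Mmp14, a membrane-bound metalloproteinase that cleaves fibrillar collagen, read 159.9, 190.5 and 202 in the controls, 345 in PlGF replicate 1 and 232 in replicate 2, and 149.9, 217 and 197 in the PlGF/RGS4-labelled arrays, a log2 fold change of 0.62 ± 0.21 (SE) in PlGF (limma adjusted p = 0.141). Its PlGF hearts were above the other 6. Mmp2, a gelatinase that MMP14 activates, read 1584, 1795 and 1787 in the controls, 2004 in PlGF replicate 1 and 1735 in replicate 2, and 1729, 1611 and 1924 in the PlGF/RGS4-labelled arrays, with overlapping groups and a log2 fold change of 0.12 ± 0.10 (SE) (limma adjusted p = 0.52). Mmp3, which encodes stromelysin and is named after its values were seen, read 28.4, 35.5 and 27.5 in the controls, 43.2 in PlGF replicate 1 and 37.9 in replicate 2, and 34.2, 164 and 35.3 in the PlGF/RGS4-labelled arrays. The high array of Mmp3 was PlGF/RGS4 replicate 2 and not a PlGF heart, and the log2 fold change of that group was 0.93 ± 0.55 (SE) (limma adjusted p = 0.995).

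All 3 TGF-beta ligands were at least 1.5-fold above the control mean in PlGF replicate 1, against 7.04% of all genes. In PlGF replicate 2 this held for 0 of them, against 1.88%. Tgfb1 read 372, 400.0 and 366 in the controls, 724 in PlGF replicate 1 and 447 in replicate 2, and 371, 372 and 377 in the PlGF/RGS4-labelled arrays. Both PlGF hearts were above the other 6, and the log2 fold change was 0.58 ± 0.17 (SE) (limma adjusted p = 0.111). Tgfb3 read 349, 367 and 367 in the controls, 658 in PlGF replicate 1 and 367 in replicate 2, and 368, 365 and 377 in the PlGF/RGS4-labelled arrays, and Tgfb2, named after its values were seen, read 187, 187 and 157 in the controls, 719.6 in PlGF replicate 1 and 181.6 in replicate 2, and 169, 187 and 207 in the PlGF/RGS4-labelled arrays. For both of these ligands only PlGF replicate 1 stood out, with group log2 fold changes of 0.44 ± 0.21 (SE) and 1.03 ± 0.48 (SE) (limma adjusted p = 0.25 and 0.255). The ligands had 0 of 3 called and 1 higher at an unadjusted p under 0.05, against 10.9% of all genes.

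**Figure D3:**
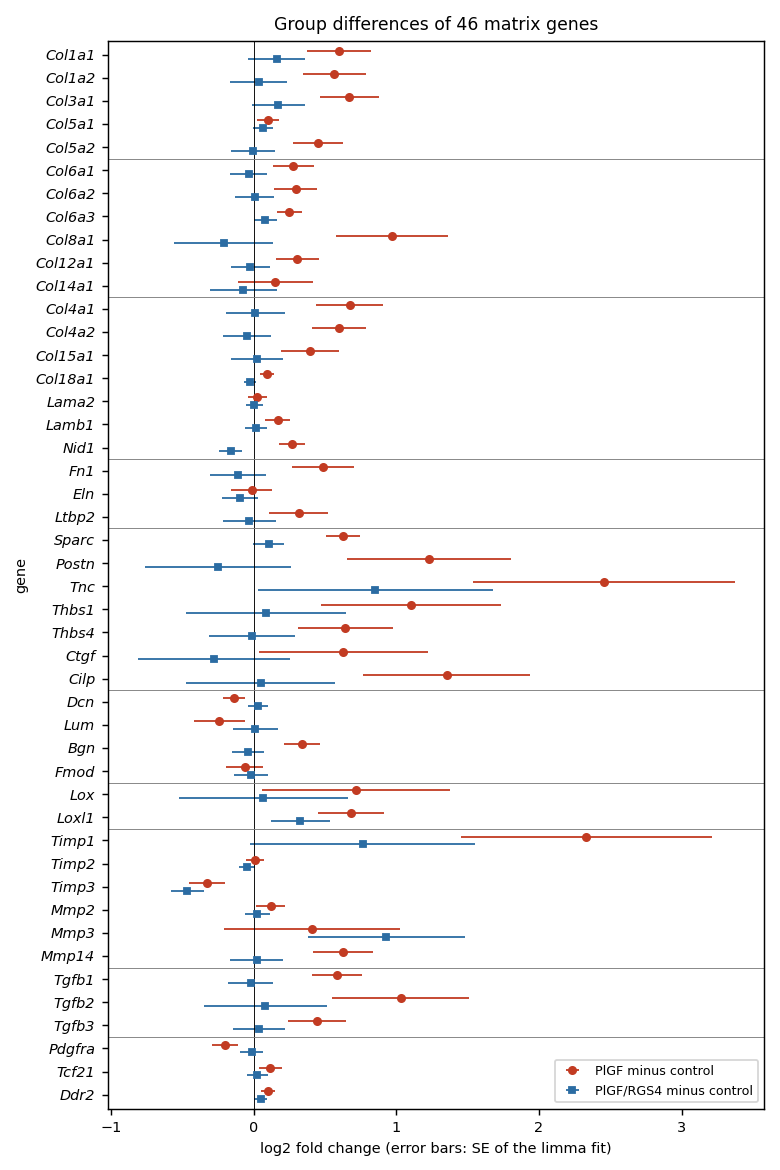
Log2 fold change from control of the 46 matrix genes, with PlGF as red circles, PlGF/RGS4 as labelled as blue squares, and bars for the SE of the limma fit to 8 arrays. Most red points lie to the right of 0, with long bars for Tnc, Timp1, Lox, Thbs1, Mmp3, Ctgf, Cilp and Postn. The shortest bars relative to the change belong to genes such as Sparc. The blue points gather about 0 except for Timp3 on the left and Tnc, Timp1 and Mmp3 on the right.

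The spread between the PlGF hearts was not even across the roles. PlGF replicate 1 was above PlGF replicate 2 for 41 of the 46 matrix genes and for 8548 of all 19933 genes, and the 5 exceptions were Dcn, Lum, Pdgfra, Tcf21 and Timp3. As medians over the group, PlGF replicate 1 lay above control by 2.29 on the log2 scale for matricellular proteins, 1.29 for the cross-linking enzymes, 0.98 for fibrillar collagens and 0.93 for the TGF-beta ligands. The same heart was at 0.42 for basement membrane genes, 0.09 for the fibroblast receptors with Tcf21 and −0.15 for the leucine-rich proteoglycans. PlGF replicate 2 had medians from −0.09 to 0.16 over all 10 groups. With 1 heart each, the difference between the 2 PlGF hearts has no test.

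**Figure D4:**
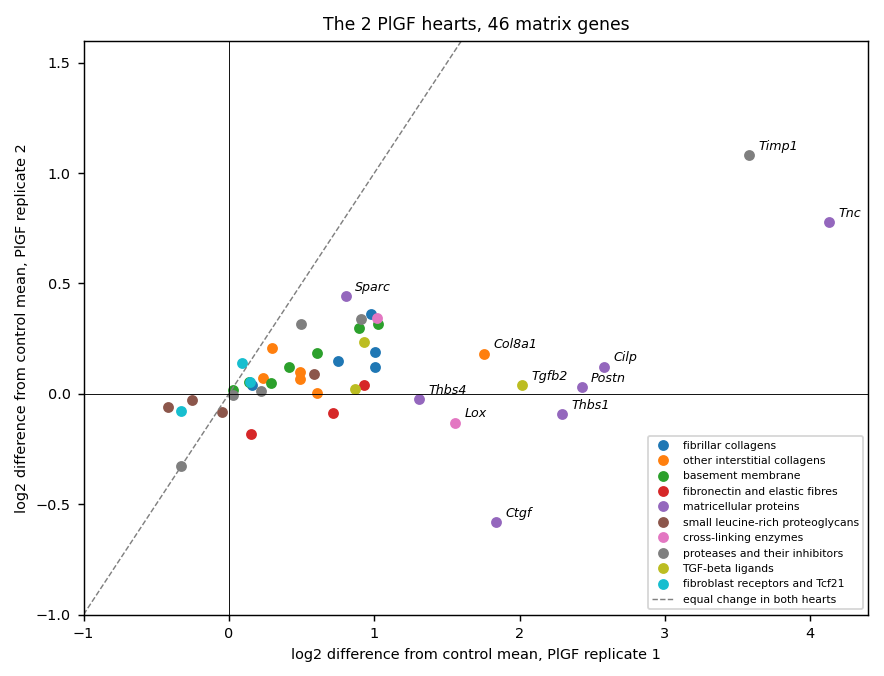
Log2 difference from the control mean in PlGF replicate 1 (horizontal) and PlGF replicate 2 (vertical), with 1 point per matrix gene, coloured by role, and a dashed line where both hearts would be equal. Of 46 points, 41 lie below the line, and Tnc and Timp1 are the 2 that are at least 1.5-fold above control in both hearts while Ctgf is above 0 in replicate 1 and below it in replicate 2.

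**Figure D5:**
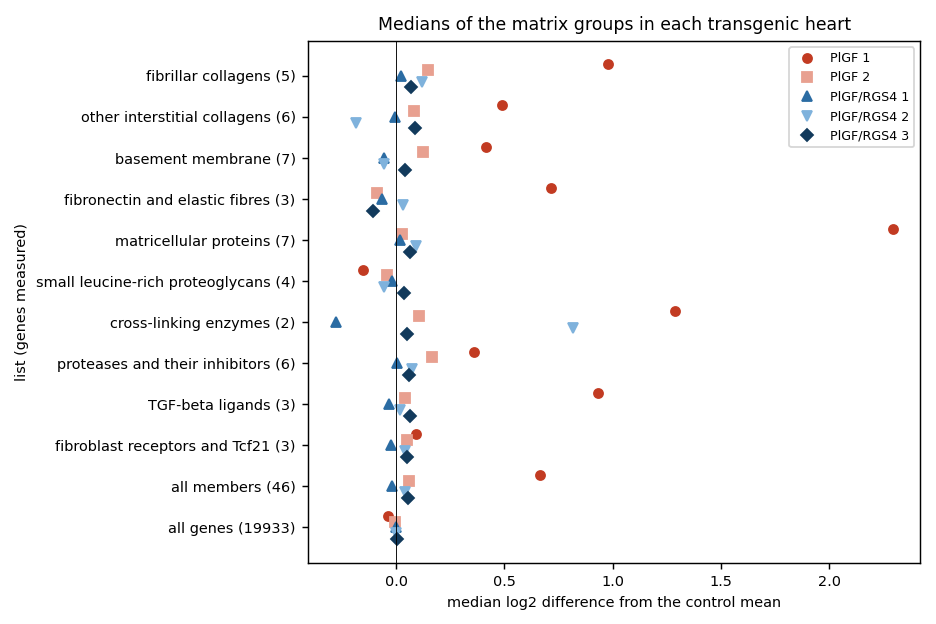
Median log2 difference from the control mean over the genes of each role group (genes measured in parentheses), all 46 matrix genes and all 19933 genes, with 1 symbol for each of the 5 transgenic hearts. PlGF replicate 1 is to the right for most groups, most of all the matricellular proteins at 2.29, and lies left of 0 for the leucine-rich proteoglycans, while the other 4 hearts stay near 0 except for the 2 cross-linking enzymes.

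The second comparison set the PlGF/RGS4-labelled arrays against the same controls. Here 0 of the 46 genes were called in either direction by limma, against 0.0151% of all genes higher and 0% lower. An unadjusted p under 0.05 was found for 0 genes above control and 1 below, Timp3, against 2.74% and 2.28% of all genes. All 3 arrays lay above the controls for 1 gene, Tnc, and below them for 5, against 6.96% and 5.85% of all genes. The median log2 fold change was 0.01. At least 1.5-fold above the control mean were 0, 5 and 0 of the 46 genes in replicates 1, 2 and 3, against 0.161%, 0.472% and 0.206% of all genes. The 5 genes in replicate 2 were Tnc, Timp1, Mmp3, Lox and Loxl1. The Pgf readout, which was not above control despite the label, applies to each of these values.

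The third comparison tested the difference between PlGF and the PlGF/RGS4-labelled arrays. Of the 46 genes 0 were called by limma, against 1.1% of all genes higher and 0.0853% lower in PlGF. An unadjusted p under 0.05 was found for 14 genes above and 0 below in PlGF, against 8.95% and 10.6% of all genes. Both PlGF hearts were above all 3 others for 17 genes and below them for 0, against 12.6% and 19.9% of all genes. The smallest adjusted p of limma in this comparison was that of Nid1, 0.0843, at a log2 difference of 0.43 ± 0.09 (SE), followed by Sparc at 0.52 ± 0.12 (SE) (limma adjusted p = 0.0966). The control samples are shared by the first 2 comparisons, so their values are given side by side only.

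Of 118 further matrix pathway genes on lists of the same kind, 113 were measured, and the first comparison called 2 as higher and 1 as lower than control (all genes, 1.79% and 0.748%). With an unadjusted p under 0.05 there were 29 of the 113 above and 14 below control, against 10.9% and 11.7% of all genes. The median log2 fold change of the 113 was 0.08. Ctss, which encodes the elastin-cleaving protease cathepsin S of macrophages, read 222, 214 and 242 in the controls, 1847 in PlGF replicate 1 and 749.7 in replicate 2, and 181.7, 268 and 187 in the PlGF/RGS4-labelled arrays. It rose by 2.38 ± 0.35 (SE) on the log2 scale (limma adjusted p = 0.0247). Between PlGF and the PlGF/RGS4-labelled arrays Ctss was the 1 gene of the 113 called, against 1.1% of all genes higher and 0.0853% lower. Adam17, a sheddase of membrane proteins, rose by 0.35 ± 0.06 (SE) (limma adjusted p = 0.0422), reading 625, 671 and 705 in the controls, 872 in PlGF replicate 1 and 828 in replicate 2, and 704, 739 and 732 in the PlGF/RGS4-labelled arrays. Lama5, the laminin chain of vessel basement membranes, fell. It read 880.0, 901 and 841 in the controls, 521 in PlGF replicate 1 and 612 in replicate 2, and 718, 826 and 756 in the PlGF/RGS4-labelled arrays, a log2 fold change of −0.63 ± 0.09 (SE) (limma adjusted p = 0.0227). The next genes by unadjusted p were Sdc3, a heparan sulfate proteoglycan of the cell surface, at 0.61 ± 0.13 (SE), Mmp16, a membrane-bound metalloproteinase, at −0.31 ± 0.07 (SE), and Fbln1, an elastic fibre protein, at −0.74 ± 0.17 (SE) (limma adjusted p = 0.0601, 0.0588 and 0.0646). Among the 113 limma called 0 in the second comparison, against 0.0151% of all genes higher and 0% lower. There 5 of the 113 above control and 2 below had an unadjusted p under 0.05, against 2.74% and 2.28% of all genes.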

How the data were processed

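Per the labels and methods the deposited values are linear intensity units, which the authors computed by MAS 5.0 with global scaling. The submitters' processing notes name MAS5. Of the 3302 brightest probe sets 25.3% had the same value to 1 decimal on at least 2 of the 8 arrays, as quantile normalization can leave; the sources used here name no such step, so whether more than global scaling was done is unsettled. Of 28440 probe sets, the 21780 with 1 gene symbol were kept (1618 had several and 5042 had none here), and a gene with more than 1 was read from its brightest, which gave 19933 genes. Values were log2 of the intensity plus 1. All 8 arrays entered a single model of 3 group means, fitted by lmFit and eBayes of limma 3.58.1 (R 4.3.3), with a Benjamini-Hochberg adjusted p under 0.05 as the threshold over all genes. Exact permutation tests over arrays cannot go below 0.1. The number of arrays limits the precision, and the labels call them biological replicates.

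Genes were given with the value of every array if called, or at least 1.5-fold from control with arrays that do not overlap, or among the 2 brightest of a group in the controls. Other genes have fold changes only, save Col14a1 and 5 more named outside this rule (Postn, Thbs1, Thbs4, Tgfb2 and Mmp3), which are marked as such. Further pathway genes were named if called, or filled to 3 per direction by unadjusted p. The members and lists were chosen with earlier results of these data known. Settings tried as alternatives are given with their effect after the report. The other data of the study were not used here.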

Additional observations from a re-analysis of the deposited data

Results flagged for a closer look

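For 2 of the 46 matrix genes both PlGF hearts lay above all 3 controls and all 3 hearts labelled PlGF/RGS4 below them, an order that 0.512% of all genes showed. Nid1 was above the controls in both PlGF hearts and below them in the 3 labelled PlGF/RGS4, and the difference between these groups was 0.43 ± 0.09 (SE) on the log2 scale (limma adjusted p = 0.0843). Fn1 showed the same order, with a difference of 0.60 ± 0.22 (SE) (limma adjusted p = 0.21). Neither difference passed the threshold, and both rest on a group whose Pgf readout was not above control despite its label. Single arrays were not tested for standing apart within a group, since no group had 4 arrays.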

How the results depend on the processing

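The number of matrix genes called in PlGF against control was 1, and became 0 with array weights, with only the 2 groups compared, with the methods' t-test, with the spread of a one-way ANOVA, with a replicate block and with log2 of the intensity plus 16. It stayed at 1 with quantile normalization, arrays centred on their median, genes above the median level, the mean of all probe sets and a trend and robust prior. With each array left out in turn it ran from 0 to 29. It was 29 without PlGF replicate 2 and 0 without any other array. The gene involved, Sparc, kept its direction throughout, and its limma adjusted p ran from 0.00303 to 0.147 as arrays were left out. It was 0.524 with the methods' t-test, 0.0531 with log2 of the intensity plus 16 and 0.143 with the replicate block. Over all genes 505 were called in this comparison, from 0 to 131 with array weights, only the 2 groups, the t-test, the ANOVA spread or the replicate block, 5921 without PlGF replicate 2, and from 17 to 366 without another array. Deviations of same-numbered arrays from their group means had correlations from −0.22 to 0.30. Differently numbered arrays were not compared, so this check cannot tell whether the numbers pair the hearts. In PlGF against the PlGF/RGS4-labelled arrays the count ran from 0 to 27, and was 27 without PlGF replicate 2 only. In the PlGF/RGS4-labelled arrays against control it was 0 throughout, with 1 to 3 genes at an unadjusted p under 0.05. Where the first count was 0, between 2 and 17 genes had an unadjusted p under 0.05.

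Directions of single genes turned in 9 of 622 values. Lama2 was −0.028 with arrays centred on their median and Eln was 0.024 with the replicate block. With arrays left out, Eln ran from −0.18 to 0.15 (0.0079 without control replicate 2, 0.068 without control replicate 3, 0.15 without PlGF replicate 2). Without PlGF replicate 1, Ctgf (Ccn2) was −0.58, Lox −0.13, Thbs1 −0.092 and Thbs4 −0.024, while without PlGF replicate 2 they ran up to 1.84, 1.56, 2.29 and 1.31. The cause of these shifts was not tested beyond the arrays left out. With 2 PlGF hearts, that group's own spread is the gap between them.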
